A study of Rattus norvegicus with 3 samples.

Results

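The genes described here are those that move zinc and iron through the cell: the Slc30 and Slc39 zinc transporters, the metallothioneins and the zinc sensor Mtf1, and, for iron, its carrier, receptor, transporters, Steap reductases, ferritin, regulators and the heme oxygenase Hmox1. They were picked by a rule on gene symbols, set with earlier results of these data known. Of the 16629 genes and regions listed, 43 met the rule. Ftl1, the ferritin light chain, was the 1 symbol in the rule that had no row, since the table lists that gene as Ftl. Mtf2 met the rule by its name, although it encodes a Polycomb-associated protein and not a metal sensor.

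Cells take zinc into the cytosol through Slc39 (Zip) proteins, from outside or from internal stores, and remove it to the outside or into vesicles through Slc30 (ZnT) proteins. Metallothioneins bind free zinc. When cytosolic zinc is high, the zinc sensor Mtf1 switches on the metallothionein genes Mt1a and Mt2A and the exporter gene Slc30a1. Iron travels in blood on transferrin, enters through the transferrin receptor, is reduced and moved into the cytosol, is stored in ferritin and leaves through ferroportin, which the liver hormone hepcidin removes from the membrane. The pineal gland, which makes melatonin by night, is among the zinc-rich tissues.

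The study sequenced poly(A) RNA in 3 libraries, all from adult rats of the Sprague-Dawley strain kept on a cycle of 14 h light and 10 h darkness. Glands were taken at zeitgeber time 7 (ZT, hours after lights on), in the middle of the light phase, and at ZT19, in the dark. RNA of 15 other tissues taken at ZT7 (from the nervous system, cortex, hypothalamus, midbrain, cerebellum, hindbrain, spinal cord and retina; otherwise pituitary, adrenal gland, liver, kidney, small intestine, heart, lung and skeletal muscle) was pooled in equal amounts, so a gene used by 1 of these tissues is diluted in the pool. Each group had 1 library, so no difference below has a replicate check and no p-value is given, and the labels do not say how many glands went into each library. All 9 pinealocyte markers examined were present in the gland, with a summed level of 9021 FPKM by day and 9713 by night against 750 in the mixed tissues.

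Levels are FPKM (fragments scaled per kilobase of transcript and of mapped library size), as deposited, and can be compared between genes because they are per length. Values given as log2 are differences of log2(FPKM + 1), which understate changes at low FPKM, and every call and count uses that scale. Folds and ratios given for single genes, with their bounds, are plain quotients of FPKM, so the 2 scales differ for low genes. Comparisons were limited to genes with FPKM 1 or more in either library of the pair. Gene coordinates are on rn4. At the estimated depths a 1 kb transcript at 20 FPKM has 95% Poisson bounds of 17.1 and 23.2 in the day library, 16.4 and 24.2 in the night library and 17.3 and 23.0 in the pool, and 3 fragments on 1 kb correspond to 0.34, 0.57 and 0.31 FPKM. Bounds on a ratio below are exact binomial 95% bounds for a 1 kb transcript. They reflect counting error, leave out variation among animals, and are wider for shorter transcripts.

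The metal response element, the site bound by Mtf1, has the core TGCACNC or TGCGCNC. Its matches were mapped in the promoters of the 3 metallothionein genes and of Slc30a1. This sensor is known to act on Mt1a, Mt2A and Slc30a1, and Mt3 is shown as the remaining metallothionein. Mt3 and Slc30a1 were added to the genes first planned for display. Each sequence is RefSeq's, on the build GRCr8, and runs from 250 bases before to 50 after the gene's start, 5′ to 3′ on the gene's strand. Capitals mark matches to either core on either strand. Mt1a lies on the minus strand at chr19:10832926-10833225, Mt2A on the minus strand at chr19:10838659-10838958, Mt3 on the minus strand at chr19:10856031-10856330 and Slc30a1 on the plus strand at chr13:106021769-106022068.
Mt1a: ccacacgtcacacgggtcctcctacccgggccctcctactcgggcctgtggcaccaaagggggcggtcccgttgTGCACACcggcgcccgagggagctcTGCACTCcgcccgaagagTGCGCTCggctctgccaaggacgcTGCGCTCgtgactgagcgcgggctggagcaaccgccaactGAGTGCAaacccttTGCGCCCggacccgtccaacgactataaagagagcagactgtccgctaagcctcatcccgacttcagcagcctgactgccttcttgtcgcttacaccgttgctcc
Mt2A: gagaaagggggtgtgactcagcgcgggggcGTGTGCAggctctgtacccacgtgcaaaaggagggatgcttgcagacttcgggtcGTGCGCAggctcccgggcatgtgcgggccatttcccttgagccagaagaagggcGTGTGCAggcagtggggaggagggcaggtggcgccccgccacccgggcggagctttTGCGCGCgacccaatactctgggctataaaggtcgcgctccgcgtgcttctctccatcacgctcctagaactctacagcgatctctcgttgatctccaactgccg
Mt3: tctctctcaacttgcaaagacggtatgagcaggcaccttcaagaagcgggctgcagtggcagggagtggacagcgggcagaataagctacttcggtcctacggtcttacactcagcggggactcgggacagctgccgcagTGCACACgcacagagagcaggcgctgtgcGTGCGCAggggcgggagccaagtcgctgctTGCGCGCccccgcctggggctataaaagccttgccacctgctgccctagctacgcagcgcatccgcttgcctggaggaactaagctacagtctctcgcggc
Slc30a1: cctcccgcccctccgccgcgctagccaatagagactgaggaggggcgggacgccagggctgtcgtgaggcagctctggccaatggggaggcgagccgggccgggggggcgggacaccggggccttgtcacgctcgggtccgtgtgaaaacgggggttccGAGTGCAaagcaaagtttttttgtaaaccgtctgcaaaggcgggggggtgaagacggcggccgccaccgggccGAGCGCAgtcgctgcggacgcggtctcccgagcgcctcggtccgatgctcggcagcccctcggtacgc

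Mt1a held 6 matches, Mt2A 4, Mt3 3 and Slc30a1 2. Promoter sequences were matched for 35 of the 43 genes, and 17 of them (48.6%) held at least 1 match, against 24.2% of all 33469 promoters in the table. Slc39a4, Slc39a14, Slc30a7, Slc30a8, Slc30a10, Fth1, Hfe and Hmox1 had no promoter sequence there and were not searched for any motif. At least 3 matches, overlapping ones counted separately, were found in 8 of the 35 (Mt1a, Mt2A, Mt3, Slc30a2, Slc30a4, Slc39a7, Steap1 and Tfrc) and in 1.68% of all promoters. The 35 were also richer in G and C (median 65.0% against 51.7%), and the part of base composition in the difference was not tested. The cAMP response element TGACGTCA was in 0 of the 35 and in 1.83% of all promoters. TAATCC, a core recognised by Crx-type homeobox factors, was in 5 of the 35 (14.3%, against 7.17% of all), namely Slc30a5, Slc30a6, Slc39a2, Slc39a12 and Slc39a13. The E-box CACGTG was in 4 (11.4%, against 6.42%), namely Mt2A, Slc30a3, Slc30a5 and Slc39a11. Matches are letters in a window and were not shown to be bound.

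The highest level among the 43 genes in the gland was that of Slc39a4, a plasma membrane importer best known for taking up dietary zinc in the intestine. It stood at 81.2 FPKM by day, 80.1 by night and 7.49 in the mixed tissues. Small intestine is 1 of the 15 tissues in that pool and is diluted there, so gland and intestine cannot be ranked. The gland exceeded the pool 10.8-fold by day (bounds 8.49 to 14.0; log2 3.27) and 10.7-fold by night (log2 3.26), while night and day differed little (ratio 0.987, bounds 0.874 to 1.12). Ranked by FPKM among all 16629 genes, Slc39a4 (chr7:114661924-114666098, rn4) was number 389 by day, 430 by night and 6682 in the mixed tissues.

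Slc39a8, an importer of zinc that also carries manganese, iron and cadmium, was the other gene at least 4-fold above the mixed tissues. It was at 37.0 FPKM by day, 18.7 by night and 4.29 in the pool. The gland was 8.63-fold above the pool by day (bounds 6.19 to 12.1; log2 2.85) and 4.36-fold by night (bounds 2.99 to 6.38; log2 1.90, below the 4-fold mark on the FPKM + 1 scale). By night the level was 1.98-fold lower than by day (bounds 1.57 to 2.50; log2 -0.95), just short of 2-fold. Slc39a8 (chr2:233340396-233403459) is also known from blood vessels, and the 6 endothelial markers found summed to 24.8 FPKM by day, 21.5 by night and 107 in the mixed tissues. Their part in the result was not tested.

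The make-up of the Slc39 family differed accordingly. The 13 members summed to 225 FPKM by day, 193 by night and 140 in the mixed tissues. Slc39a4 held 36.0% of that sum by day, 41.5% by night and 5.36% in the pool, and Slc39a8 held 16.4%, 9.69% and 3.07%. In the pool the leading members were instead Slc39a7, which releases zinc from the endoplasmic reticulum (26.0%), and Slc39a1, a widely used plasma membrane importer (22.3%).

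**Figure D1:**
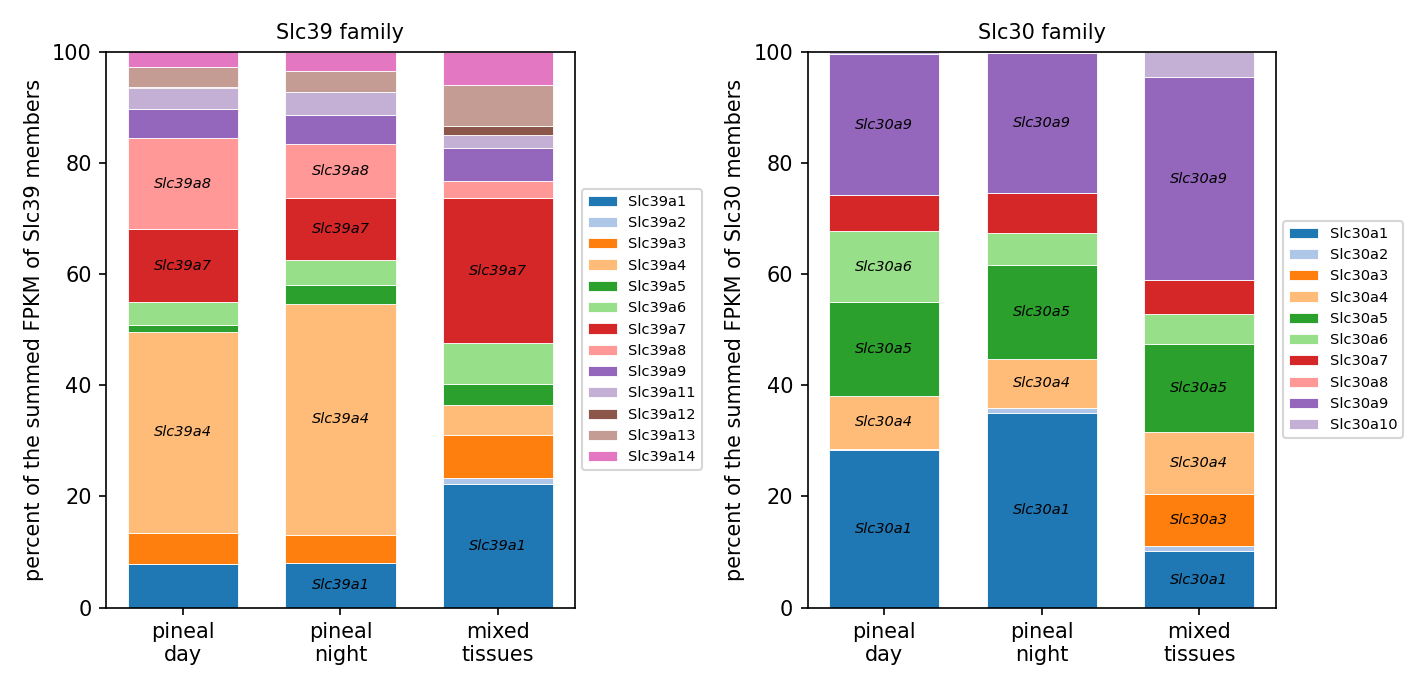
Share of each member in the summed FPKM of its zinc transporter family (y axis, percent) in the 3 libraries (x axis, 1 library each). Slc39a4 takes 36.0% and 41.5% of the Slc39 sum in the gland against 5.36% in the mixed tissues, and Slc30a1 takes 28.3% and 34.9% of the Slc30 sum against 10.1%.

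A further 8 Slc39 members had moderate to high levels and lay closer to the pool. Slc39a11, a Golgi member of the family, was at 8.69 FPKM by day, 8.04 by night and 3.19 in the mixed tissues (log2 1.21 by day). Slc39a7 stood at 29.6, 21.5 and 36.3 FPKM, and Slc39a1 at 17.7, 15.5 and 31.2. Slc39a3, a plasma membrane importer, was at 12.7 by day and 9.77 by night, and Slc39a9, a Golgi member, at 11.8 and 10.2. Slc39a6, Slc39a13 and Slc39a14 lay between 6.33 and 9.13 FPKM in both gland libraries. All 8 of these had at most a 1.38-fold difference between night and day.

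Slc39a5, an importer of the pancreas and intestine, differed between night and day. It was at 6.50 FPKM by night, 2.97 by day and 5.25 in the mixed tissues, 2.19-fold higher by night than by day (bounds 1.26 to 3.75; log2 0.92). The gland was 1.77-fold below the pool by day (bounds 1.08 to 2.94) and 1.24-fold above it by night (bounds 0.771 to 1.93). Slc39a12, a brain importer, was at 0.18 FPKM by day, listed at 0 by night and at 2.14 in the pool. Slc39a2 was listed at 0 in both gland libraries and at 1.46 FPKM in the pool. An exact 0 in these tables can be a failed estimate.

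Among the Slc30 genes, the highest in the gland was Slc30a1, the exporter of the plasma membrane that lowers cytosolic zinc. It was at 26.3 FPKM by day, 34.9 by night and 8.83 in the mixed tissues. The gland was 2.98-fold above the pool by day (bounds 2.31 to 3.86; log2 1.48) and 3.95-fold by night (bounds 3.03 to 5.15; log2 1.87). Night was 1.33-fold above day (bounds 1.08 to 1.61; log2 0.39). Slc30a1 (chr13:107980863-107986519) held 28.3% of the summed FPKM of its family by day, 34.9% by night and 10.1% in the pool, whereas the sum over the 10 members was alike, at 92.9, 99.9 and 87.4 FPKM.

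Slc30a5 and Slc30a6 encode partners that load zinc into the early secretory pathway as a joint complex. Their transcripts differed in how night compared with day. Slc30a6 was at 11.8 FPKM by day, 5.72 by night and 4.76 in the mixed tissues, 2.07-fold lower by night than by day (bounds 1.37 to 3.23; log2 -0.93). Slc30a5 was at 15.6, 16.8 and 13.8 FPKM. By day the gland was 2.49-fold above the pool for Slc30a6 (bounds 1.74 to 3.61; log2 1.16) and 1.13-fold for Slc30a5. Slc30a7, another transporter of the Golgi, was at 6.01 by day, 7.32 by night and 5.27 in the pool.

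Slc30a9, a mitochondrial zinc transporter, was at 23.6, 25.1 and 31.8 FPKM, and Slc30a4, which fills endosomes and lysosomes, at 8.92, 8.83 and 9.74. Neither differed by more than 1.35-fold between any of the libraries. Slc30a3, which loads zinc into synaptic vesicles of neurons, was at 0.05 FPKM by day and 0.14 by night, below the level of 3 fragments on 1 kb, against 8.29 in the mixed tissues (log2 -3.14 and -3.02). Slc30a10, a manganese exporter, was at 0.43, 0.21 and 4.08 FPKM. Slc30a8, of insulin granules, was listed at 0 in both gland libraries and at 0.073 in the pool, and Slc30a2, of secretory vesicles, stayed below 1 FPKM in all 3.

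Mt3, the brain metallothionein, held nearly all of the listed metallothionein FPKM in each library (98.9% by day, 94.8% by night and 98.5% in the pool). These shares are uncertain, since they depend on the values of Mt1a and Mt2A, which are uncertain as described below. Mt3 was at 42.4 FPKM by day, 58.7 by night and 209 in the mixed tissues (chr19:11284553-11286402). The gland was 4.93-fold below the pool by day (bounds 4.41 to 5.52; log2 -2.27) and closer to it by night (log2 -1.81). Night was 1.38-fold above day (bounds 1.19 to 1.61; log2 0.46). Mt3 is also expressed by astrocytes, whose 7 markers found summed to 239 FPKM by day, 197 by night and 1069 in the pool. By day 5 of the 7 were at least 4-fold below the pool, while Gja1 (81.4 against 70.7 FPKM) and Slc1a2 (72.6 against 74.2) were near it. The sum was lower by night than by day, but Aldoc was higher (47.4 against 39.1). The part of astrocytes in the Mt3 result was not tested. In bulk tissue, fewer cells of a type and less RNA per cell cannot be told apart.

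Mt1a, the metallothionein gene with 6 metal response element cores shown above, was the only member at least 2-fold apart between night and day on the FPKM + 1 scale. It was at 3.21 FPKM by night, 0.25 by day and 1.71 in the mixed tissues. The night to day ratio was 13.1 with bounds of 3.33 to 125 (log2 1.76), since the day value lies below the level of 3 fragments on 1 kb. Mt2A was at 0.23 FPKM by day, listed at 0 by night and at 1.49 in the pool, which is too low to show or exclude a like difference (bounds of the night to day ratio 0 to 8.80). Bounds for both genes assume a 1 kb transcript and are too narrow for a shorter one. The whole genes span only 1018 bases (Mt1a) and 776 bases (Mt2A). The genes lie close together, with 5162 bases between Mt1a (chr19:11261630-11262647) and Mt2A and 15967 between Mt2A and Mt3. Values of Mt1a and Mt2A are uncertain: both were below 2 FPKM even in a pool with liver and kidney, and RefSeq names 3 further copies of Mt1a.

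The sensor gene Mtf1 was at 10.6 FPKM by day, 12.5 by night and 4.80 in the mixed tissues. The gland was 2.20-fold above the pool by day (bounds 1.54 to 3.20; log2 0.998) and 2.60-fold by night (log2 1.22). Mtf2 stood at 5.34, 6.38 and 5.80. The night to day ratio of Mtf1 (log2 0.22) lies within counting error (bounds 0.842 to 1.63). Besides Mt1a, the genes with at least 3 metal response element cores that could be compared by time were Mt3, Slc39a7, Slc30a4 and Tfrc. Their night over day log2 ratios were 0.46, -0.44, -0.01 and 0.00, and that of Slc39a7 came from 1 of its 2 entries. A link between cores and these ratios was not tested.

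**Figure D2:**
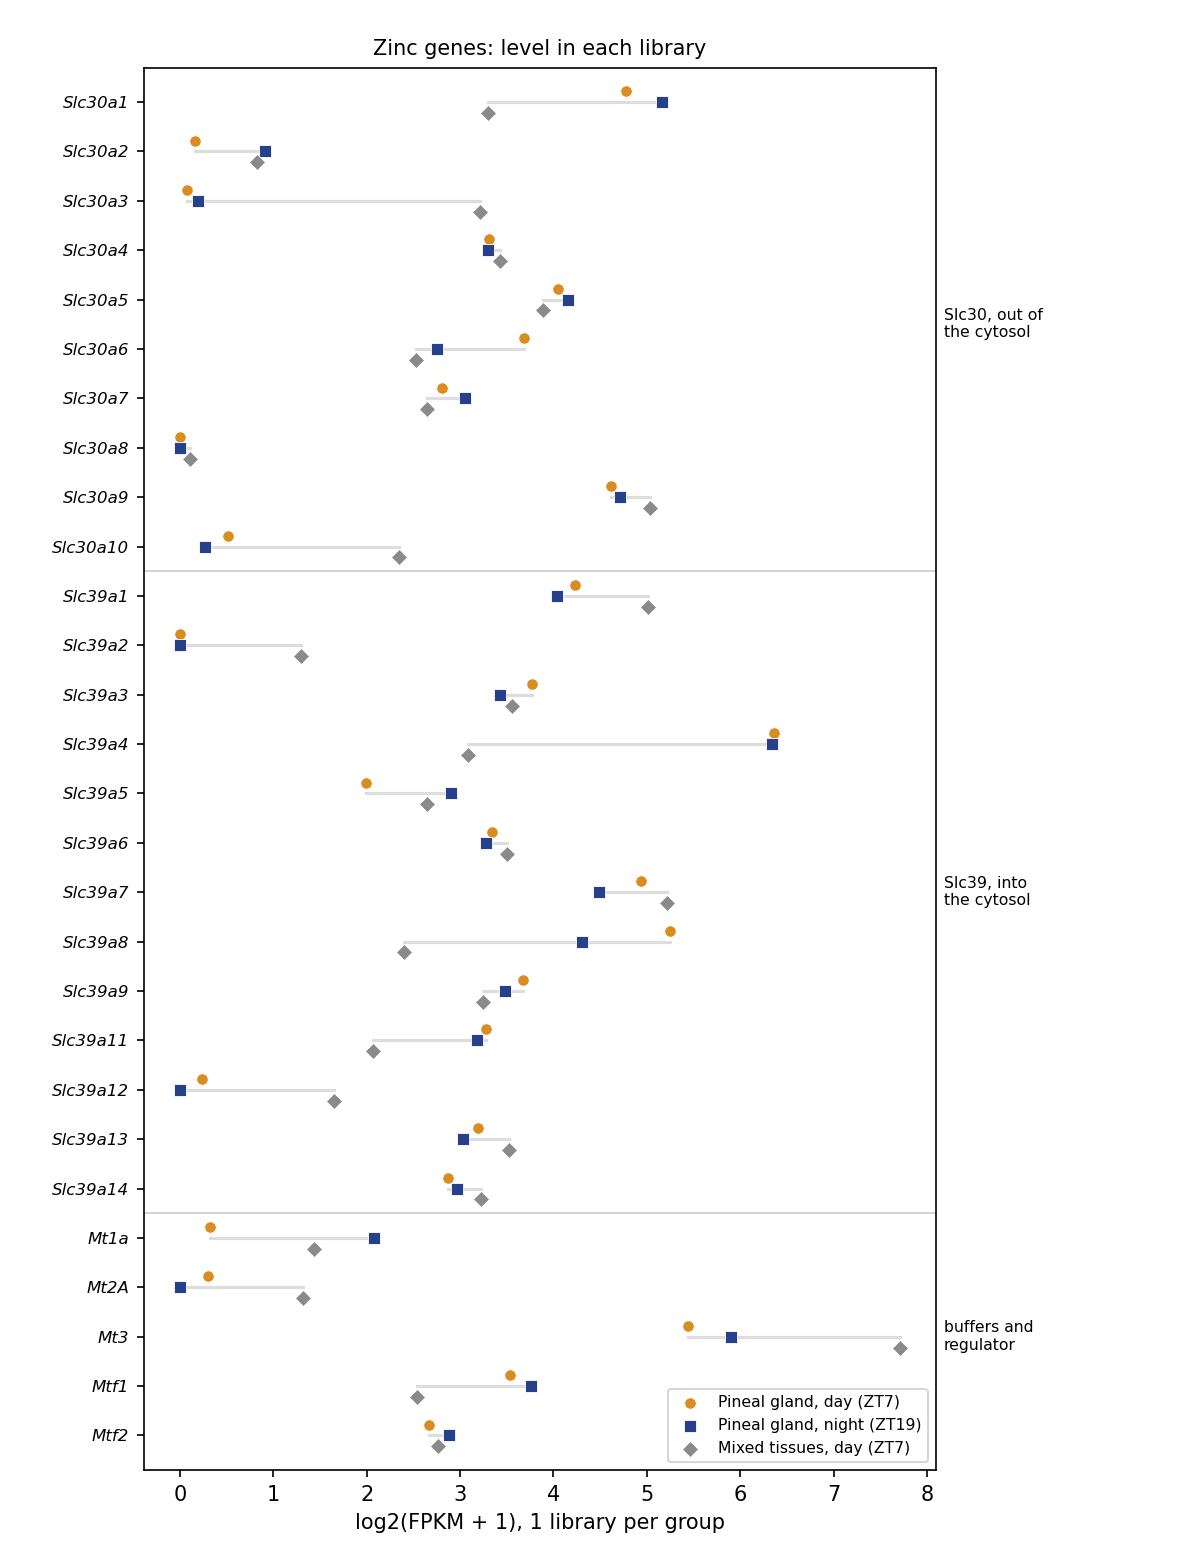
Level of each zinc gene (x axis, log2 of FPKM + 1) in the pineal gland by day (circles), by night (squares) and in the mixed tissues (diamonds), 1 library each. Markers of a gene are offset vertically so that they can be told apart. The gland lies to the right of the pool for Slc39a4, Slc39a8, Slc39a11, Slc30a1 and Mtf1, and to the left of it for Mt3 and Slc30a3.

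On the iron side, the carrier transferrin showed the widest gap to the pool among the 43 genes, leaving out those listed at 0 in the gland, on the log2(FPKM + 1) scale. Tf was at 22.5 FPKM by day, 18.4 by night and 918 in the mixed tissues, 40.7-fold lower in the gland by day (bounds 35.3 to 47.1; log2 -5.29) and further below by night (log2 -5.56). Tf (chr8:108217773-108244487) is made by liver and by oligodendrocytes, both present in the pool. The 7 oligodendrocyte markers summed to 61.3 FPKM by day, 37.9 by night and 4905 in the pool, with 1 of them, Mobp, listed at 0 by night. Of the 5 liver markers found, Alb, Fgb and Ahsg were listed at 0 in both gland libraries. Serpina1 was at 6.41 FPKM by day, 2.52 by night and 295 in the pool. Ttr was high in the gland too, at 516, 607 and 685 FPKM. The part of these cells in the result was not tested.

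Tfrc, the transferrin receptor through which most cells take up iron, was at 4.96 FPKM by day, 4.97 by night and 27.8 in the mixed tissues. It was 5.61-fold lower in the gland by day (bounds 4.08 to 7.97; log2 -2.27), and night and day were level (ratio 1.002, bounds 0.589 to 1.66). Erythroid markers, from cells that use much of this receptor, summed to 387 FPKM by day, 358 by night and 1303 in the pool, and endothelial markers were lower in the gland too, as given above. Their part in the result was not tested.

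The transporter and the main reductase stood on the other side of the pool. Slc11a2 (Dmt1), which moves ferrous iron out of endosomes, was at 18.9 FPKM by day, 14.8 by night and 11.0 in the mixed tissues, 1.72-fold above the pool by day (bounds 1.34 to 2.21; log2 0.73). By night Slc11a2 was 1.35-fold above the pool, within counting error (bounds 0.989 to 1.81). Steap2, a metalloreductase of endosomes and the Golgi, was at 16.4, 17.8 and 8.40 FPKM, 1.96-fold above by day (bounds 1.48 to 2.60; log2 0.89) and 2.12-fold by night (bounds 1.55 to 2.87; log2 1.003). Steap2 held 83.1% of the summed FPKM of the 4 Steap genes by day and 89.4% by night, against 48.8% in the pool. Steap3, the reductase known from red cell precursors, was at 0.52, 0.43 and 3.58 FPKM, and Steap4 at 2.11, 1.32 and 4.43. Steap1, which lies 61068 bases from Steap2 on chromosome 4, stayed below 1 FPKM in all 3 libraries, so neighbours differed in level.

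Fth1, the ferritin heavy chain that oxidises and stores iron, was the second most abundant member in both gland libraries, after Slc39a4. It was at 66.4 FPKM by day, 59.8 by night and 156 in the mixed tissues, 2.35-fold below the pool by day (bounds 2.14 to 2.59; log2 -1.22) and within counting error between night and day (ratio 0.900, bounds 0.783 to 1.03). RefSeq names 6 further copies of Fth1, which makes its values uncertain. The light chain gene, listed as Ftl, was at 0.795, 1.14 and 0.76 FPKM, and RefSeq names 21 further copies of it. Such values for a ubiquitous protein are uncertain in all 3 libraries.

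The members for iron export, Slc40a1 and Heph, and the hormone gene Hamp were low in the gland. Cp (ceruloplasmin), from the wider list of iron genes given below, was not. It was at 33.0 FPKM by day, 29.4 by night and 33.1 in the mixed tissues. Ferroportin, Slc40a1, was at 1.07 FPKM by day, 0.87 by night and 7.00 in the mixed tissues (log2 -1.95 and -2.10). Heph, hephaestin, which oxidises iron on its way out, was at 1.40, 0.73 and 6.24 FPKM (log2 -1.59 and -2.06). Hamp, hepcidin, the liver hormone that closes ferroportin, was listed at 0 in both gland libraries and at 51.4 FPKM in the pool. By plain FPKM quotients Slc40a1 was 6.56-fold and Heph 4.44-fold below the pool by day. The night and day values of both genes differed by less than counting error. Macrophages use much ferroportin, and the 8 microglia and macrophage markers summed to 63.4 FPKM by day, 59.7 by night and 107 in the pool. Their part in the result was not tested.

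The cytosolic iron sensors were near the pool. Ireb2 (iron regulatory protein 2), which binds ferritin and transferrin receptor messages when iron is scarce, was at 13.0 FPKM by day, 16.1 by night and 11.9 in the mixed tissues. Aco1, the aconitase that acts as the other such protein, was at 15.0, 12.9 and 18.5. Hfe, a partner of the transferrin receptor in iron sensing, was at 0.845, 1.28 and 2.81 FPKM, a sum of 3 entries. Hmox1, the inducible enzyme that frees iron from heme, was at 5.52, 3.89 and 7.22. Its night to day ratio of 0.704 had bounds of 0.411 to 1.23.

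**Figure D3:**
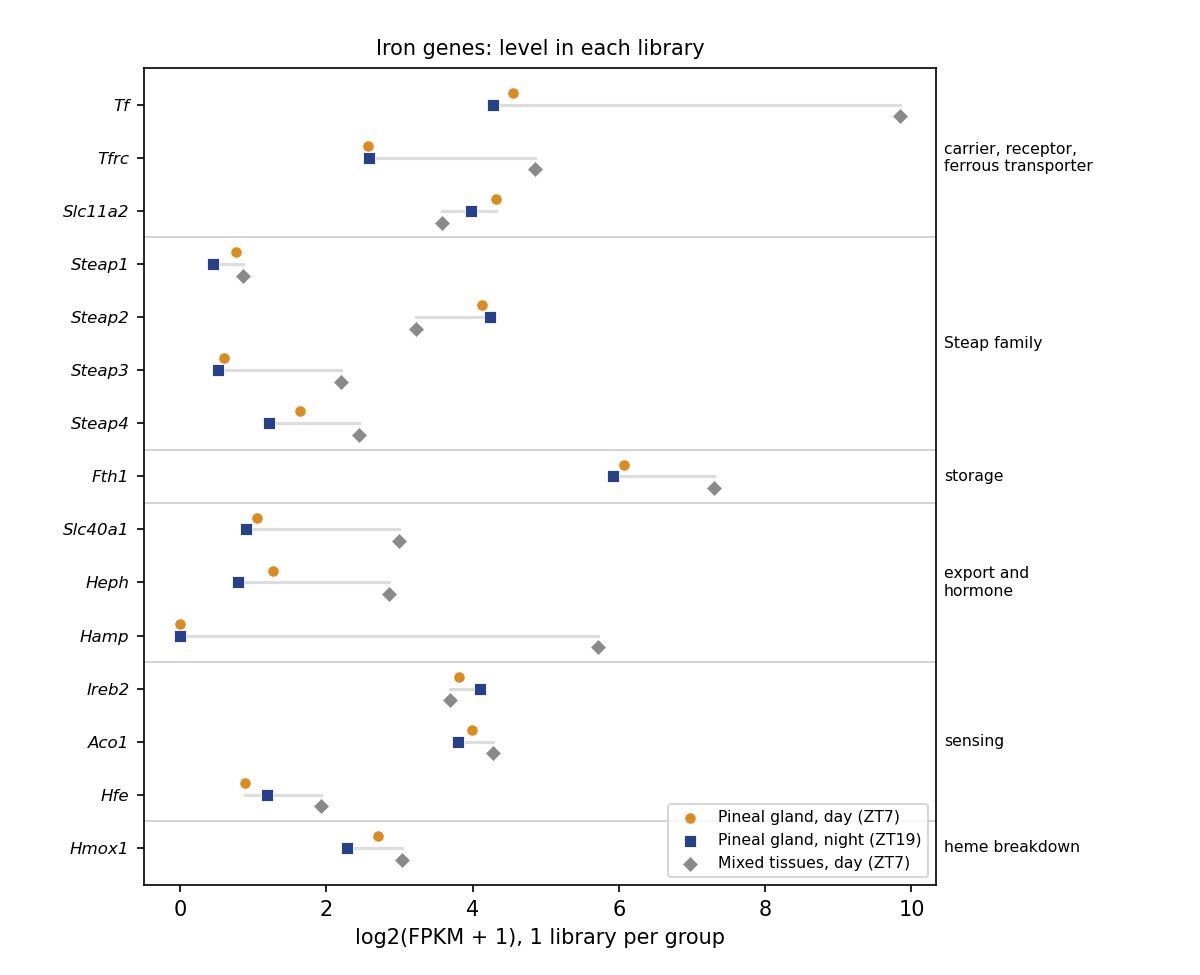
Level of each iron gene (x axis, log2 of FPKM + 1) in the pineal gland by day (circles), by night (squares) and in the mixed tissues (diamonds), 1 library each, with markers offset vertically. Tf, Tfrc, Fth1, Slc40a1, Heph and Hamp lie to the left of the pool in both gland libraries, and Steap2 and Slc11a2 to the right. Slc11a2 by night is within counting error of the pool.

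Set against all genes, the members differed little by time of day. Of the 43, 33 could be compared between night and day, 1 was at least 2-fold higher, 0 were lower and 32 lay within 2-fold. Over all 9826 entries compared, the share at least 2-fold up at night was 4.18% and the share down 2.11%, so 1 of 33 (3.03%) is near the background. The median log2 ratio was -0.06 for the members and -0.11 for all. The 10 not compared, below 1 FPKM in both gland libraries, were Hamp, Mt2A, Slc30a2, Slc30a3, Slc30a8, Slc30a10, Slc39a2, Slc39a12, Steap1 and Steap3. Slc39a5, Slc39a8 and Slc30a6 lay just inside 2-fold on the FPKM + 1 scale. With a pseudocount of 0.1 in place of 1, 2 were higher (Mt1a and Slc39a5) and 1 lower (Slc30a6), and with one of 5, 0 were higher. The 9 pinealocyte markers had a median night over day ratio of 0.36 (log2), with 0 past 2-fold.

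Against the mixed tissues by day, 40 members were compared, of which 2 were at least 4-fold higher (Slc39a4 and Slc39a8) and 5 at least 4-fold lower (Hamp, Tf, Slc30a3, Mt3 and Tfrc). The shares of all 11934 genes and regions compared were 2.29% and 13.2%, against 5.0% and 12.5% of the members. By night, in a comparison that shares the pool and is therefore not independent, 1 was higher (Slc39a4; 3.09% of all) and 7 lower (Hamp, Tf, Slc30a3, Tfrc, Slc40a1, Slc30a10 and Heph; 14.4% of all). At 2-fold by day, 5 were higher (12.5% of the members, 8.32% of all) and 15 lower (37.5% and 28.9%). At 2-fold by night, 6 were higher (15.0% and 8.99%) and 14 lower (35.0% and 31.2%). The median log2 ratio by day was -0.34 for the members and -0.27 for all genes. These shares rest on few genes and were not tested. With a pseudocount of 0.1 the count at least 4-fold lower was 13 by day (21.9% of all genes) and 11 by night (23.7%), and with one of 5 it was 3 (4.37%) and 2 (4.63%).

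**Figure D4:**
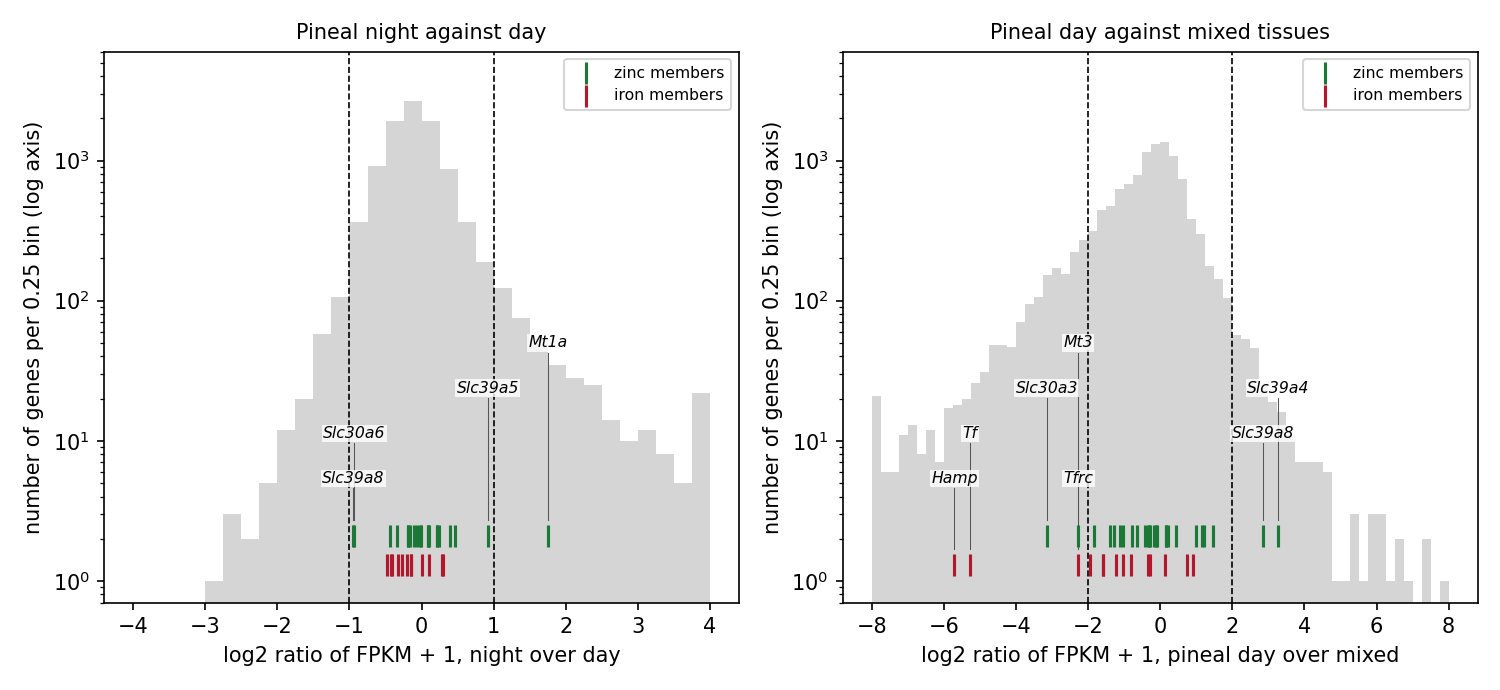
Distribution of log2 ratios of FPKM + 1 over all genes compared (grey histogram, log y axis, values beyond the axis in the end bins) with the zinc members (green ticks) and iron members (red ticks), for night over day (left) and the gland by day over the mixed tissues (right). Dashed lines mark 2-fold on the left and 4-fold on the right. Mt1a lies beyond 2-fold on the left at 1.76, and Slc39a4 and Slc39a8 lie beyond 4-fold on the right at 3.27 and 2.85.

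Other genes of iron, heme and zinc handling were followed as a list of 54, of which 48 were found. Of 34 compared between night and day, 0 were at least 2-fold apart (median log2 -0.07). Of all genes 4.18% were higher and 2.11% lower, so a count of 0 among 34 is near the background. Of 43 compared with the mixed tissues by day, 0 were at least 4-fold higher and 8 lower (median log2 -0.47). Of all genes 2.29% were higher and 13.2% lower. The 8 lower genes are named in part. They included the blood proteins haptoglobin, Hp (0.54 FPKM by day, 0.41 by night and 249 in the pool), and hemopexin, Hpx (0.12, 0.18 and 156), which bind free haemoglobin and heme. Hfe2, hemojuvelin, a coreceptor that drives hepcidin in liver, was listed at 0 in both gland libraries and at 25.2 FPKM in the pool. S100b, a calcium and zinc binding protein of astrocytes, was at 21.7, 15.8 and 295, and S100a9, a zinc-binding protein of neutrophils, at 0.52, 0.57 and 7.16. By night 9 were lower, where 14.4% of all genes were, among them Epas1, a hypoxia factor that acts on iron genes (24.1, 19.99 and 91.5).

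Several genes of the list that handle iron inside the cell stood above the pool without reaching 4-fold, and are named here after their values were seen. Ncoa4, the receptor that carries ferritin to the lysosome for iron release, was at 53.3 FPKM by day, 76.2 by night and 32.3 in the mixed tissues. Nfs1, the desulfurase that supplies sulfur to iron-sulfur clusters, was at 81.8, 96.1 and 32.7. Alad, an early enzyme of heme synthesis that itself needs zinc, was at 41.4, 42.3 and 16.8. Other genes of the list stood below the pool, among them Iscu (41.5, 37.6 and 80.2), Cpox (4.42, 4.04 and 12.6) and Hmox2 (7.58, 11.3 and 24.5). The median log2 ratio by day over the 43 genes of the list compared was -0.47, so the genes above the pool do not stand for the list.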

How the data were processed

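RNA-seq libraries of rat pineal gland (1 by day, 1 by night) and of pooled tissues (1) were analysed from deposited FPKM values, computed by the authors. The build rn4 and the programs TopHat 1.3.1 and Cufflinks 1.2.0 are named per the submitters' processing notes, with no options, filters or rule for multiply mapped reads. Per the labels' protocols, poly(A) RNA was fragmented, primed at random and sequenced as paired ends.

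Rows that share a symbol were summed (17089 entries gave 16629 genes and regions). The table of the series equalled the files per sample in 51267 of 51267 values. Ratios used FPKM + 1 and a filter of FPKM 1 in at least 1 of the 2 libraries. A call was 2-fold by time and 4-fold against the pool, and the 2-fold count against the pool was added after seeing the data. Depth was estimated from 1341 single-exon receptor models of 800 to 1100 bp, whose smallest values repeat at 1 fragment: 8.73 (day, 22 models), 5.29 (night, 4 models) and 9.72 (mixed, 23 models) fragments per kb at 1 FPKM. Every member could be named, and those past a threshold with FPKM of at least 5, or leading a role, were described in full. The members and lists were chosen with earlier results of these data known. Alternatives were other pseudocounts, filters, median centring and the highest row of each symbol. The ratio script was tested on simulated data. Python 3.11.15, pandas 2.3.3, numpy 2.4.6, scipy 1.17.1 and matplotlib 3.10.9 were used.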

Additional observations from a re-analysis of the deposited data

How the results depend on the processing

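Counts of members past a threshold moved with the handling of low values, and groups of 1 library allow no replicate to be left out. Between night and day, the count at least 2-fold higher was 1 and became 2 with a pseudocount of 0.1 or with ratios centred on the median gene, and 0 with a pseudocount of 5 or a filter at FPKM 5. The count lower was 0 and became 1 with a pseudocount of 0.1. The median of the members, -0.06, became 0.047 when centred. By day against the pool, the count at least 4-fold lower was 5 and became 13 with a pseudocount of 0.1 and 3 with one of 5. At 2-fold, 5 were higher and 15 lower. The median, -0.34, became -0.22 with a filter at FPKM 5 and -0.070 when centred. By night against the pool, the count higher was 1 and became 2 with a pseudocount of 0.1 and 3 when centred, and the count lower was 7 and became 11 with a pseudocount of 0.1, 2 with one of 5 and 3 when centred. At 2-fold, 6 were higher and 14 lower. The median, -0.41, became -0.30 with a pseudocount of 5, -0.18 with a filter at FPKM 5 and -0.045 when centred. Centring shifts ratios by 0.11, 0.27 and 0.36. Filters change which genes are counted, and the cause of the other moves was not tested. A pseudocount or a filter cannot change the sign of a member's ratio. When centred, 101 of 113 ratios of single members kept their sign, and with the highest row of each symbol 111 of 112 did. Of the ratios that had passed a threshold, 0 changed sign. Slc39a4 and, by day, Slc39a8 stayed at least 4-fold above the pool under every alternative run. No paired analysis was possible because each group holds 1 library. The shallow night library limits members below about 1 FPKM.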

Other observations

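Slc39a7 was deposited as 2 entries that start 38 bases apart. The shorter was at 16.4 FPKM by day, 16.4 by night and 30.5 in the mixed tissues, and the longer at 13.2, 5.08 and 5.81. The night to day difference of the summed gene (log2 -0.44) thus came from the longer entry, and the labels do not say how reads were divided between entries that overlap this closely.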
